A study of Homo sapiens with 18 samples.

Results

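Chromatin immunoprecipitation followed by sequencing (ChIP-seq) peaks were examined at 8 genes of the nuclear lamina and envelope (LMNA, LMNB1, LMNB2, LBR, TMPO, BANF1, LEMD2 and LEMD3), out of 19103 protein-coding genes on chromosomes 1 to 22. A peak belonged to a gene when it shared at least 1 bp with the gene body or the 10 kb on either side, in hg38 coordinates with GENCODE release 44 gene models. The cells were HEK293T, an established line derived from human embryonic kidney and carrying the SV40 large T antigen, either left untreated (CTRL) or kept for 1 day in 1 mM valproic acid (VPA), which blocks histone deacetylase enzymes. Antibodies against H3K27ac, an acetylated lysine of histone H3 at active promoters and enhancers, and against CTCF, a zinc-finger protein found at the bases of chromatin loops, gave 3 libraries per treatment each. Of the 18 samples, the 6 inputs were not analysed here. The labels do not say whether replicates were separate cultures, so p-values measure only the spread between these libraries. All groups were this same line, and the labels name no genetic change. H3K27ac peaks were present in 6 of 6 libraries at the promoters of KRT8, KRT18, VIM and PAX2, which this line expresses, and in 0 libraries at PTPRC, CD3E and ALB, which mark blood and liver cells.

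The nuclear lamina is a meshwork of intermediate filaments under the inner nuclear membrane that holds heterochromatin at the nuclear edge. LMNA encodes the A-type lamins A and C, and LMNB1 and LMNB2 encode the B-type lamins. LBR, the lamin B receptor, is a membrane protein that binds B-type lamins and heterochromatin. TMPO (the LAP2 proteins), LEMD2 and LEMD3 (MAN1) carry the LEM domain, which binds the DNA-bridging protein encoded by BANF1. The question here was whether VPA changed acetylation or CTCF binding at these genes.

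Merging the peaks of the 6 libraries of an antibody wherever they shared at least 1 bp gave 44 H3K27ac regions in the 8 windows, of 55382 in all, and 26 CTCF regions, of 69985 in all. Of these, 17 H3K27ac regions and 15 CTCF regions had a peak in 6 of 6 libraries. Every gene had an H3K27ac region at its promoter (at most 1 kb from the start of the canonical transcript, its TSS) in 6 of 6 libraries. The promoter regions of BANF1, TMPO and LMNB1 also covered the start sites of their neighbours EIF1AD, TMPO-AS1 and LMNB1-DT, and that of LEMD3 covered the start sites of ENSG00000276853 and ENSG00000289319, so the acetylation there cannot be assigned to 1 gene. LEMD3 had CTCF peaks in 0 libraries.

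In hg38, LMNA lies at chr1:156082573-156140081 (plus strand), LMNB1 lies at chr5:126776623-126837020 (plus strand), LMNB2 lies at chr19:2427638-2456959 (minus strand). LBR lies at chr1:225401502-225428925 (minus strand) and TMPO at chr12:98515579-98550351 (plus strand). BANF1 lies at chr11:66002228-66004149 (plus strand), LEMD2 at chr6:33771202-33789130 (minus strand) and LEMD3 at chr12:65169583-65248355 (plus strand). The windows also held the start sites of MEX3A (at LMNA), TIMM13 (at LMNB2), and CST6 and EIF1AD (at BANF1), so peaks of those genes were counted with the window. The promoter H3K27ac regions were chr1:156114095-156117649 at LMNA, chr5:126775499-126780625 at LMNB1 and chr19:2451982-2458174 at LMNB2. They were chr1:225424491-225429079 at LBR, chr12:98514394-98522443 at TMPO, chr11:66000054-66003931 at BANF1, chr6:33787503-33789725 at LEMD2 and chr12:65168927-65172293 at LEMD3.

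**Figure D1:**
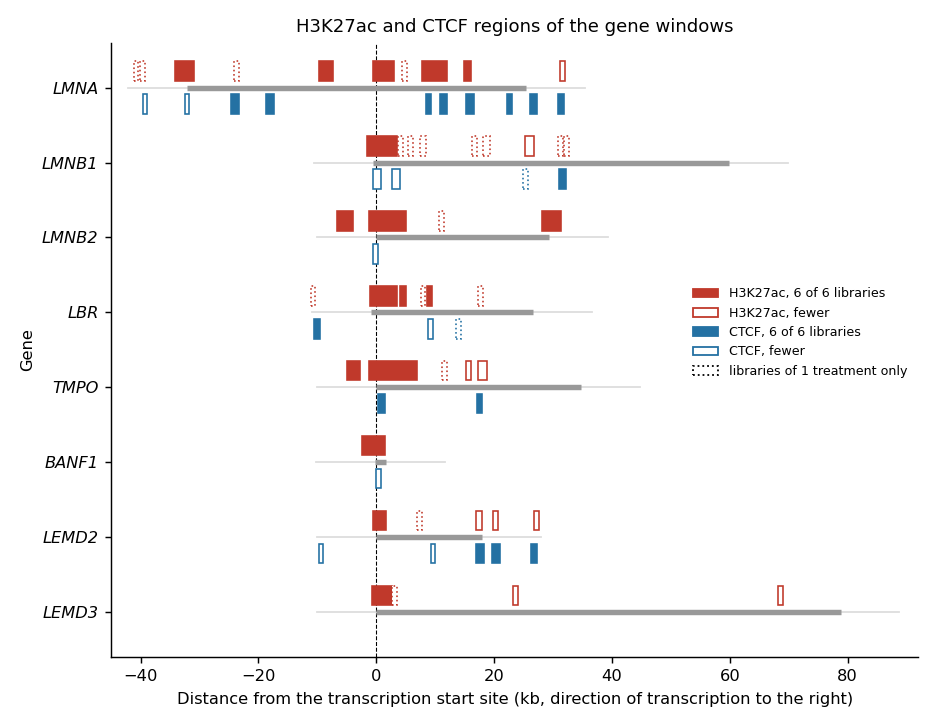
Regions of the 8 gene windows by distance from the TSS (kb), with H3K27ac above and CTCF below each gene body (grey bar). Filled boxes are regions with a peak in 6 of 6 libraries, and dotted outlines mark regions with peaks in libraries of 1 treatment only, which are mostly H3K27ac regions away from the start sites. Short regions are drawn wider than they are so that they can be seen.

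The promoters of LMNB1, TMPO and LEMD3 are shown because they are the 3 that were lower in VPA by summit pileup, described below, with and without centring of the libraries. The sequences are RefSeq promoters of GRCh38.p14 on the plus strand, from 250 bases before to 50 bases after the start, and each lies inside the promoter H3K27ac region. Capitals mark CCAAT boxes (CCAAT) and GC boxes (GGGCGG) on either strand, which occur in 34.5% and 57.1% of 20584 promoters of 14616 genes.
LMNB1 at chr5:126776886-126777185: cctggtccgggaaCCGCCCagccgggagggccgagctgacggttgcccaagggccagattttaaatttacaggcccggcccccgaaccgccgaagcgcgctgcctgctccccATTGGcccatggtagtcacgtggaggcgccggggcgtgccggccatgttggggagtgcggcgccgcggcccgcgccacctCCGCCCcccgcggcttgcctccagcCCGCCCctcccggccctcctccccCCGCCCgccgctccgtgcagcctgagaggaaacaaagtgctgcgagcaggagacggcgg
TMPO at chr12:98515340-98515639: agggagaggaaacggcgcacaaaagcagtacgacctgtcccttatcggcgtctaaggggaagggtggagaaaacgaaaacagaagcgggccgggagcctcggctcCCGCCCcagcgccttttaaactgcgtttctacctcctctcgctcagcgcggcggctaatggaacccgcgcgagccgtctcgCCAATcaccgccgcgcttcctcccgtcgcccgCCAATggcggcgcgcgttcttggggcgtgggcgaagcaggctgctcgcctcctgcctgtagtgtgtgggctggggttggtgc
LEMD3 at chr12:65169333-65169632: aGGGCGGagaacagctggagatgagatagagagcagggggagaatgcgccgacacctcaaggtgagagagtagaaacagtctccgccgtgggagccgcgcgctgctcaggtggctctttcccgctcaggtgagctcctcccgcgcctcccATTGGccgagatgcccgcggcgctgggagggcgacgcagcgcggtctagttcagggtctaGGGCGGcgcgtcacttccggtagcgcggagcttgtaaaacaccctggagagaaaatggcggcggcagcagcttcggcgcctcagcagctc
All 3 were rich in CpG, with 34, 34 and 29 CG pairs against a median of 21 over all promoters. This did not set them apart from LMNB2, which held 38, while BANF1 held 23. The nearest RefSeq promoters of LMNA, LBR and LEMD2, 783 to 7995 bp from the canonical start, held 19, 8 and 4. LMNB1 held 1 CCAAT box and 4 GC boxes, TMPO held 2 and 1, and LEMD3 held 1 and 2. A match of letters is a description and not a binding site.

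Fold enrichment is the height of a peak's summit over its local background as the authors' peak caller gave it. Whether that background came from the input libraries or from the immunoprecipitated library itself is not given in the sources used here. Before the results, the replicate 1 libraries need a note. At H3K27ac regions with a peak in 6 of 6 libraries, the median local background was 39.3 fragments in CTRL replicate 1 and 34.9 in VPA replicate 1, and 10.1 to 11.1 in the other 4 libraries. The median fold enrichment was lower in these libraries, at 7.61 and 7.49 against 15.3 to 17.2. CTCF libraries showed the same split, with median fold enrichments of 15.0 and 12.4 in replicate 1 and 42.5 to 45.3 elsewhere. Results are therefore given for each replicate number, with a fit that took the replicate number as a block, and without replicate 1. The depth of each library is unknown, and its background coverage, a relative measure of depth, lay between 3.51 and 3.95 fragments.

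At the promoters, H3K27ac fold enrichment was lower in VPA within all 3 replicate numbers at LMNB1, LMNB2, LBR, TMPO, BANF1 and LEMD3, and higher within all 3 at LMNA. The sign of the fitted difference is a looser measure, negative at 7 of the 8 promoters with and without centring. By that measure 76.6% of all 10208 promoter regions were negative without centring and 68.8% with it. The share of all promoters lower within all 3 replicate numbers is not given here. After each library was centred on its median, LMNB2 was lower in replicate 1 alone. With the replicate block, it fell at TMPO and LEMD3, and it rose at a region in an LMNA intron and at a region upstream of TMPO. Differences below are log2 VPA minus CTRL after each library was centred on its median.

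LEMD3, whose product binds lamins and SMAD proteins at the inner membrane, had promoter fold enrichments of 16.5, 36.7 and 46.1 in CTRL and 7.28, 22.2 and 24.5 in VPA. Each VPA value was lower than the CTRL value of the same replicate number, although the groups overlapped. The difference in log2 fold enrichment was -0.85 ± 0.27 (SE; adjusted p = 0.608, limma) without the block, and the adjusted p was 0.00904 with it (SE 0.19). TMPO, whose LAP2 products tie lamins to chromatin, had promoter values of 24.4, 70.4 and 107 in CTRL and 14.4, 43.9 and 45.6 in VPA. TMPO was thus also lower in VPA within each replicate number, with overlapping groups. Its log2 difference was -0.81 ± 0.34 (SE), with an adjusted p of 0.608 in limma without the block and 0.0127 with it. In replicates 2 and 3 alone the mean log2 difference was -0.70 at LEMD3 and -0.84 at TMPO. The LEMD3 call was lost with the block when CTRL or VPA replicate 1 was left out (adjusted p = 0.0513 and 0.0700, limma), and the TMPO call when CTRL or VPA replicate 3 was left out (0.0930 and 0.103). Without replicate 1 of both treatments, both promoters passed without any block (adjusted p = 0.0380 at LEMD3 and 0.0168 at TMPO, limma), in a fit that called 10.0% of all promoters lower and 1.00% higher.

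The lamin genes differed among themselves in level and in direction. LMNB1, a B-type lamin gene of dividing cells, had promoter fold enrichments of 24.1, 91.1 and 72.9 in CTRL and 17.0, 61.5 and 43.2 in VPA. LMNB1 was lower in VPA within each replicate number, and the log2 difference was -0.52 ± 0.33 (SE; adjusted p = 0.712, limma, and 0.0644 with the block). LMNA had the lowest mean promoter enrichment of the 8 genes at the canonical start, with 2.69, 10.1 and 10.5 in CTRL and 4.54, 12.9 and 14.8 in VPA. It was the one promoter that was higher in VPA within each replicate number, with a log2 difference of 0.62 ± 0.37 (SE; adjusted p = 0.698, limma, and 0.0660 with the block). At the upstream end of the LMNA gene body, a region shared with the MEX3A start had fold enrichments between 5.73 and 23.5 and a log2 difference of -0.05 ± 0.31 (SE). A further region, at -8.47 kb from the canonical start and over the nearest RefSeq start of LMNA, had a log2 difference of -0.05 ± 0.35 (SE). LMNB2 had 16.8, 63.6 and 57.9 in CTRL and 10.9, 58.8 and 55.3 in VPA. Its log2 difference of -0.18 ± 0.40 (SE; adjusted p = 0.936, limma) rested on replicate 1: the difference was -0.60 in replicate 1, 0.05 in replicate 2 and 0.01 in replicate 3, and without VPA replicate 1 the fitted value was 0.27.

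LBR had promoter values of 12.6, 40.6 and 41.4 in CTRL and 9.80, 23.7 and 29.8 in VPA, with a log2 difference of -0.45 ± 0.27 (SE; adjusted p = 0.698, limma). BANF1, the smallest gene of the group, had 13.3, 32.0 and 33.3 in CTRL and 7.81, 24.9 and 25.2 in VPA, a log2 difference of -0.43 ± 0.26 (SE; adjusted p = 0.704, limma). LEMD2 had 10.7, 44.3 and 30.6 in CTRL and 11.3, 25.8 and 25.2 in VPA, a log2 difference of -0.24 ± 0.27 (SE; adjusted p = 0.848, limma). LBR and BANF1 were lower within each replicate number and LEMD2 only within 2 and 3, and none of the 3 passed with the block (adjusted p = 0.103, 0.136 and 0.422, limma).

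**Figure D2:**
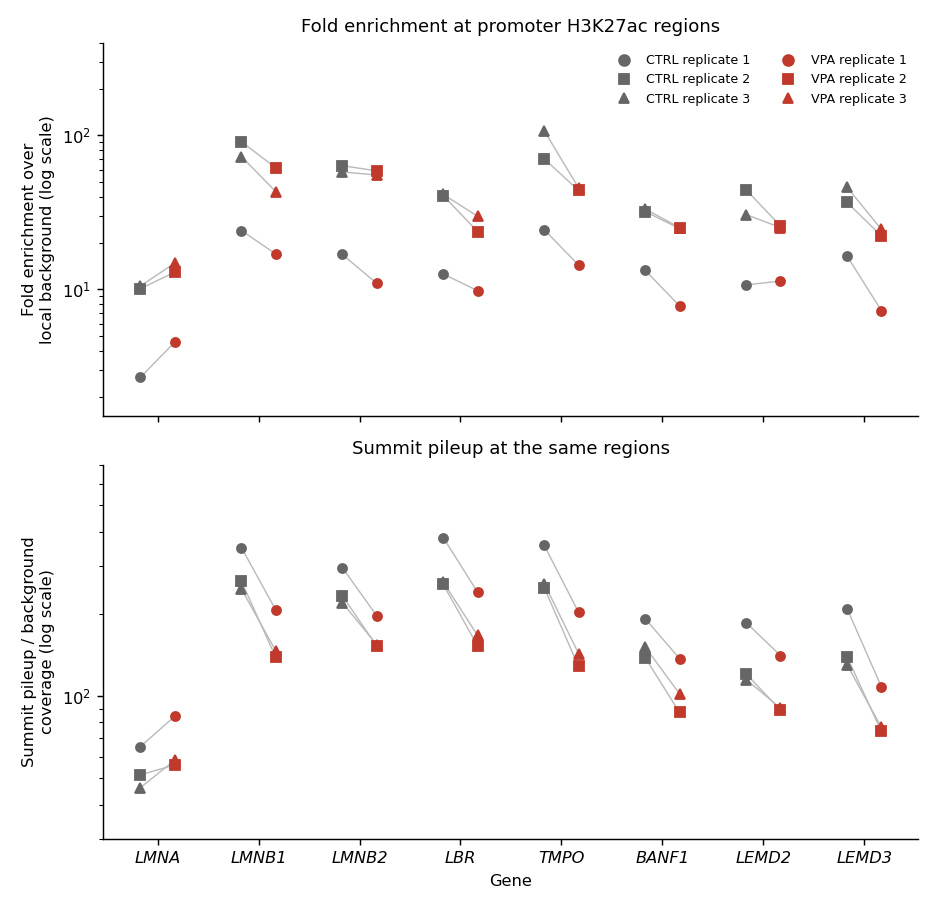
H3K27ac at the promoter region of each gene, as fold enrichment (top) and as summit pileup over background coverage (bottom), both on log axes. Each point is a library, and lines join CTRL and VPA of the same replicate number. Replicate 1 (circles) has the lowest fold enrichment and the highest pileup of its treatment, and 7 of 8 genes are lower in VPA by pileup in every replicate number while LMNA is higher. By a looser measure, the sign of the fitted pileup difference without centring, 7 of 8 genes and 88.9% of all promoter regions were negative.

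Across the genome, limma without the block called 0 of 18407 regions (0% higher and 0% lower), with 1483 at an unadjusted p under 0.05. With the replicate block it called 6.46% of regions higher and 8.59% lower (855 and 2137 regions in place of 1189 and 1581 where libraries were not centred). Promoter regions of all genes leaned to lower values, with 2.03% called higher, 11.8% called lower and a median log2 difference of -0.18. The 8 promoters had a median of -0.44, with 0 called higher and 2 called lower.

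**Figure D3:**
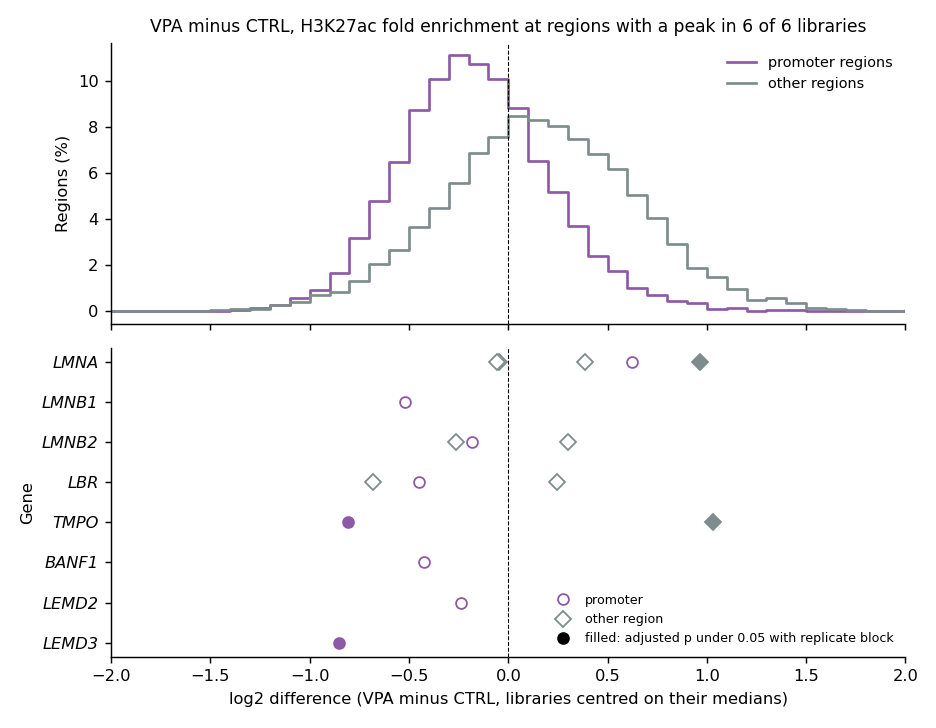
Differences in H3K27ac fold enrichment between VPA and CTRL (log2) over all regions with a peak in 6 of 6 libraries (top, as a percentage of promoter or other regions) and at the 17 regions of the 8 genes (bottom). Promoter regions centre below 0 and other regions above 0 across the genome, and the filled symbols are the TMPO and LEMD3 promoters on the left and the LMNA intron and TMPO upstream regions on the right.

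Besides the promoters of the 8 genes, 2 of the 9 remaining regions with a peak in 6 of 6 libraries passed with the block, both higher in VPA. The 9 include the start regions of MEX3A and TIMM13, which did not pass and count as promoters in the shares over all regions. Of all 8199 regions away from promoters, 12.0% were called higher and 4.61% lower in the same fit. The region at chr1:156129543-156130792 lies 15.4 kb into LMNA, in an intron. Its fold enrichments were 2.05, 2.64 and 2.68 in CTRL and 4.16, 4.50 and 4.84 in VPA, and the groups did not overlap. The log2 difference was 0.97 ± 0.50 (SE; adjusted p = 0.653, limma, and 0.0150 with the block). The call with the block was lost without CTRL replicate 1 (adjusted p = 0.0519, limma), CTRL replicate 2 (0.0508) or VPA replicate 1 (0.0605). Without replicate 1 of both treatments and without a block, the difference was 0.82 and did not pass (adjusted p = 0.0800, limma). The region at chr12:98510647-98512789 lies 3.70 kb upstream of the TMPO start. It had fold enrichments of 3.39, 3.65 and 4.23 in CTRL and 5.63, 10.1 and 6.52 in VPA, and these groups did not overlap either. The log2 difference was 1.03 ± 0.45 (SE; adjusted p = 0.615, limma, and 0.0144 with the block). Without CTRL or VPA replicate 2 it was 0.71 and 0.72 and did not pass (adjusted p = 0.115 and 0.0990, limma, with the block). Without replicate 1 of both treatments it passed at 1.05 (adjusted p = 0.0337, limma). In fold enrichment with the block, TMPO thus had opposite directions within one window, the promoter lower and the upstream region higher.

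The summit pileup, the number of fragments over the summit divided by the library's background coverage, is not divided by the local background, and it includes the background fragments. Fold enrichment and pileup are both ratios to a background, so a lower value need not mean less acetylation in absolute amount. By summit pileup 6 of the 8 promoters fell and LMNA rose without any block. At LMNB1 it was 350, 263 and 247 in CTRL and 207, 139 and 146 in VPA. At TMPO it was 356, 249 and 258 in CTRL and 203, 128 and 143 in VPA, and at LEMD3 209, 139 and 130 against 108, 74.2 and 76.7. At all 3 promoters the CTRL libraries lay above the VPA libraries with no overlap. The log2 differences were -0.57 ± 0.07 at LMNB1, -0.64 ± 0.07 at TMPO and -0.64 ± 0.09 at LEMD3 (SE; adjusted p = 0.000489, 0.000519 and 0.00110, limma). LBR (-0.45), BANF1 (-0.34) and LMNB2 (-0.33) passed in the same direction (adjusted p = 0.00321, 0.00821 and 0.00295, limma). LEMD2 did not pass without the block (-0.16 ± 0.10, SE; adjusted p = 0.263, limma) and passed with it (adjusted p = 0.0336, limma), in a fit that called 51.7% of all promoters lower and 11.9% higher.

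LMNA rose by pileup, with 65.3, 51.4 and 46.2 in CTRL and 84.3, 55.9 and 58.2 in VPA, and the groups overlapped across replicate numbers. Its log2 difference was 0.51 ± 0.09 (SE; adjusted p = 0.00247, limma). The median pileup of all regions was itself lower in VPA, so these differences are relative to that shift. Without centring, the median difference over all regions was -0.28, LMNA stood at 0.27 (adjusted p = 0.379, limma), and LMNB1, TMPO and LEMD3 were the 3 promoters that passed (-0.81, -0.87 and -0.87), in a fit that called 18.1% of all promoters lower and 0.705% higher. Without replicate 1 of both treatments, 7 of 8 promoters were called lower and LMNA higher with centring, where 57.2% of all promoters were called lower and 6.64% higher.

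The lower pileup was shared with promoters elsewhere. Of all 10208 promoter regions tested, 40.8% were called lower and 7.09% higher, with a median of -0.19 against -0.39 over the 8 genes. Groups that did not overlap were seen lower at 36.9% and higher at 2.08% of promoters, and lower at 6 of the 8 genes. Over all regions, promoters included, 27.1% were called lower and 11.7% higher, and of the 17 regions of the 8 genes 7 were lower and 2 higher. The seventh lower region was the start of TIMM13, a neighbour at the end of LMNB2 (-0.60), and the second higher region was the LMNA intron region (1.28). The TMPO upstream region stood at 0.79 and did not pass by pileup (adjusted p = 0.0573, limma), but passed with the block (0.000222).

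The length covered by H3K27ac peaks was greater in VPA at all 8 genes in each replicate number. Longer coverage was common by a looser measure, as the fitted log2 difference was negative at 869 of all 15332 genes. The share of all genes with longer coverage in each replicate number is not given here. In limma without a block 0 of the 8 genes passed, with LMNA and LMNB1 at an unadjusted p under 0.05, which 25.5% of all genes reached, and with the block LMNA, LMNB1, LMNB2 and LEMD2 rose. LMNA peaks covered 7.07, 10.6 and 9.93 kb of its 77.5 kb window in CTRL and 12.2, 17.2 and 15.0 kb in VPA, and the groups did not overlap. The log2 difference was 0.68 ± 0.21 (SE; adjusted p = 0.110, limma, and 0.00418 with the block). LMNB1 peaks covered 5.38, 5.69 and 4.98 kb in CTRL and 6.93, 9.02 and 7.50 kb in VPA, also without overlap. Its log2 difference was 0.52 ± 0.15 (SE; adjusted p = 0.104, limma, and 0.00951 with the block).

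LMNB2 peaks covered 5.72, 8.64 and 8.17 kb in CTRL and 7.25, 12.0 and 12.2 kb in VPA, and replicate 1 of VPA lay within the CTRL range. LEMD2 peaks covered 1.40, 3.58 and 3.01 kb in CTRL and 1.93, 5.34 and 3.95 kb in VPA, with overlap. The log2 differences were 0.46 ± 0.26 at LMNB2 and 0.44 ± 0.44 at LEMD2 (SE; adjusted p = 0.291 and 0.499, limma, and 0.00963 and 0.0167 with the block). With the block, the LMNB1 and LMNB2 calls were lost without replicate 2 of CTRL or VPA (adjusted p between 0.0514 and 0.0550, limma), and the LEMD2 call without replicate 2 or 3 of CTRL or VPA (0.0625 to 0.0927). At LBR, TMPO, BANF1 and LEMD3 the means differed by 1.08 to 1.13 times, and none of the 4 passed with the block (adjusted p of 0.106 or more, limma).

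**Figure D4:**
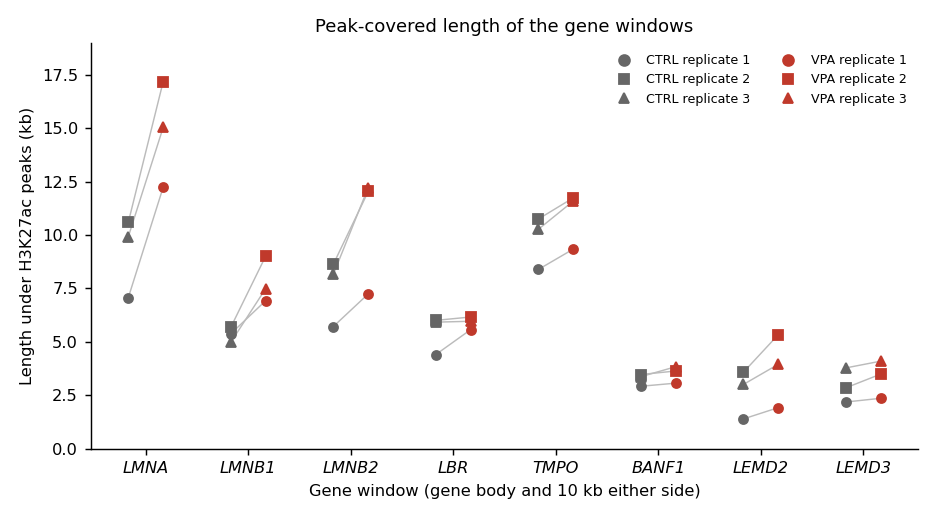
Length under H3K27ac peaks in each gene window (kb), with lines joining CTRL and VPA of the same replicate number. All lines rise, most steeply at LMNA, from 7.07 to 10.6 kb in CTRL to 12.2 to 17.2 kb in VPA.

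Longer coverage was the rule across genes. Without the block 1.59% of 15332 genes rose and 0.00652% fell, which was 244 genes and 1 gene, and after centring each library 100 and 33 genes. With the block 46.9% rose and 0.235% fell, and the median log2 difference was 0.35. Groups that did not overlap were seen at 33.0% of genes in the higher direction. Among the 8 genes they were seen at 2, LMNA and LMNB1. After centring each library, 0 of the 8 genes passed. LMNA stood at 0.29, LMNB1 at 0.13, LMNB2 at 0.07 and LEMD2 at 0.05. LBR, TMPO, BANF1 and LEMD3 stood at -0.23 to -0.29.

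The number of H3K27ac peaks separated the treatments at LMNB1. Its CTRL libraries held 2, 3 and 1 peaks and its VPA libraries 4, 6 and 5, and it was the 1 gene of 8 whose groups did not overlap (exact permutation test, two-sided p = 0.1, the smallest that 3 against 3 libraries allow). Inside the gene, 6 intron regions had peaks in VPA libraries only, in 1 to 3 libraries each, and 1 intron region had a peak in CTRL replicate 2 only. At LMNA the CTRL libraries held 6, 8 and 6 peaks and the VPA libraries 7, 10 and 8, with overlap (exact p = 0.3). The other 6 genes had exact p-values of 0.6 or 1. Compared within replicate numbers, 3 of the 8 genes had more peaks in VPA in each pair, as did 19.3% of all genes. Among all genes, 12.1% had more peaks without overlap and 0.175% fewer. The VPA lists were longer, with 38441 to 40992 H3K27ac peaks against 26299 to 29799 in CTRL, and when each list was limited to its 26299 strongest peaks 0 of the 8 genes stood apart.

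All 3 VPA libraries but 0 CTRL libraries had a peak at 1 region of the 8 windows, and 0 regions showed the reverse. It lies at chr5:126808093-126808673, in an LMNB1 intron 31.3 kb from the start, with fold enrichments of 3.13, 4.07 and 2.67. Such regions made up 4.12% of all H3K27ac regions, and regions in CTRL only made up 0.139%. In the windows, 22 of 44 regions were found in more VPA than CTRL libraries and 2 in fewer, against 51.4% and 7.64% of all H3K27ac regions.

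No CTCF difference at these genes passed the test. In the 15 regions with a peak in 6 of 6 libraries, limma called 0 differences, and 0 across the genome (0% of 27794 regions higher and 0% lower, with 129 at an unadjusted p under 0.05). For covered length, limma called 0% of 16120 genes higher and 0% lower, with 105 at an unadjusted p under 0.05. The number of CTCF peaks separated the groups at 0.390% of genes in the higher and 0.875% in the lower direction, and at 0 of the 7 genes with a CTCF peak (exact p of 0.4 or more). Regions with a CTCF peak in 3 of 3 libraries of one treatment and 0 of 3 of the other made up 0.186% (VPA) and 0.326% (CTRL) of all regions, and 0 of the 26 in the windows.

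CTCF sites were unevenly placed. LMNA held 10 of the 26 regions and 8 of the 15 with a peak in 6 of 6 libraries, and LEMD2 held 5 and 3. The strongest LMNA region, 17.9 kb upstream of the start used here and inside the longer gene body, had fold enrichments of 80.0, 98.0 and 84.4 in CTRL and 105, 95.8 and 91.2 in VPA. The strongest LEMD2 region, at the 3' end of the gene 17.45 kb from the start, had 46.4, 77.9 and 106 in CTRL and 91.2, 89.3 and 83.5 in VPA. The strongest regions of LBR, LMNB1 and TMPO were weaker in replicate 1 than in replicates 2 and 3. LBR had 8.31, 28.2 and 29.5 in CTRL and 12.1, 27.7 and 30.6 in VPA at a region 10.2 kb upstream. LMNB1 had 4.94, 20.0 and 21.7 in CTRL and 5.77, 25.5 and 15.2 in VPA in an intron. TMPO had 6.01, 51.7 and 46.3 in CTRL and 10.0, 13.2 and 46.2 in VPA, also in an intron. At these 5 regions the log2 differences lay between -0.29 and 0.39 with SEs of 0.61 to 0.80. LMNB2, BANF1 and LEMD3 had no CTCF region in 6 of 6 libraries.

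**Figure D5:**
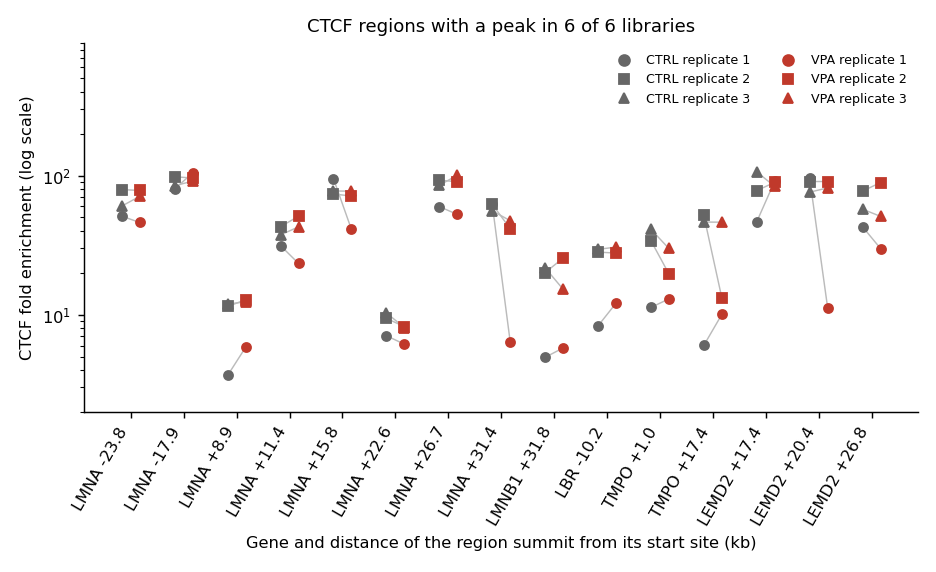
CTCF fold enrichment (log axis) of the 15 regions with a peak in 6 of 6 libraries, named by gene and distance from the TSS (kb), with lines joining CTRL and VPA of the same replicate number. Most lines are flat, and single libraries stand apart at LMNA +31.4, LEMD2 +20.4 and TMPO +17.4.

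In the library labelled VPA replicate 1, 2 regions singled out after their values were seen stood far below the rest. At LMNA, 31.4 kb from the start and beyond the gene's end, the values were 62.5, 62.1 and 55.8 in CTRL and 6.42, 41.6 and 47.4 in VPA (log2 difference -1.25 ± 0.62, SE; adjusted p = 0.9999, limma). At LEMD2, 20.4 kb from the start and beyond the gene's end, they were 95.9, 90.5 and 75.9 in CTRL and 11.3, 90.5 and 81.5 in VPA (-0.88 ± 0.69, SE; adjusted p = 0.9999, limma). Summit pileups showed the same, at 23.9 in that library against 161 to 210 at LMNA, and 43.2 against 205 to 377 at LEMD2.

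Letters of the CTCF motif were searched within 100 bp of each summit on both strands, as CCA, any 2 bases, AG, any 2 bases and GGC. They were found in 6 of the 26 regions, and in 5 of the 15 regions with a peak in 6 of 6 libraries, against 17.0% of all CTCF regions, 26.2% of those in 6 of 6 libraries and 0.723% of windows 2 kb away. With 1 mismatch allowed, the search found 17 of 26 regions, 59.6% of all regions and 13.4% of the windows away. Of the exact matches in regions with a peak in 6 of 6 libraries, 4 are shown, with the 3 sites with 1 mismatch in the strong LEMD2 regions, with 9 bases on either side, in hg38 and on the strand of the motif, and capitals mark the 12 motif letters.
LBR, chr1:225438206-225438235, plus strand, exact: ctaggcctgCCAGAAGGGGGCtcctcctcc
LEMD2, chr6:33762368-33762397, minus strand, 1 mismatch: cgagggtagCCAGCAGGGGTCagcagtgca
LEMD2, chr6:33768726-33768755, plus strand, 1 mismatch: cagagatagCCTGCAGGGGGCggggtgtgt
LEMD2, chr6:33771664-33771693, plus strand, 1 mismatch: cccttgtggCCGGCAGGGGGCagcctgcag
LMNA, chr1:156090872-156090901, plus strand, exact: aaacattggCCACCAGGTGGCgccgcaggc
LMNA, chr1:156096774-156096803, plus strand, exact: tccgctgggCCAGCAGGTGGCgccagggcc
LMNA, chr1:156146153-156146182, plus strand, exact: tcactttaaCCACTAGTGGGCaggttatta
The strongest regions of LMNB1 and TMPO held no match with 1 mismatch, which says only that these letters are not within 100 bp of those summits.

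CTCF regions of these windows often overlapped an H3K27ac region, counted if it had a peak in at least 1 library. An H3K27ac region shared at least 1 bp with 20 of the 26 CTCF regions (76.9%), against 28.4% of all CTCF regions, and conversely 20 of the 44 H3K27ac regions (45.5%) met a CTCF region, against 33.4% of all. Every window held an acetylated promoter, whereas the shares over all regions include regions outside gene windows. Among regions in 6 of 6 libraries, the CTCF share was 80.0% against 43.8%, and the H3K27ac share 47.1% against 51.7%. Of the 22 H3K27ac regions found in more VPA than CTRL libraries, 9 met a CTCF region (40.9%, against 25.4% of all such regions). The LMNB1 region with peaks in VPA only was one of these and overlapped the strongest CTCF region of that gene. Another was the LMNA region 23.6 kb upstream of the start, with peaks in 2 VPA libraries and 0 CTRL libraries over a CTCF region of 46.0 to 79.2-fold enrichment. The LMNA intron region that rose with the block met the CTCF region at 15.8 kb, whose fold enrichments were 95.0, 73.6 and 77.4 in CTRL and 41.0, 71.2 and 77.1 in VPA.

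Other genes that make, modify or bind the lamina and envelope were counted for comparison. These 21 genes were ZMPSTE24, ICMT, RCE1 and FNTB of prelamin processing, TOR1A, TOR1AIP1 and TOR1AIP2 of the torsin system, TMEM43, TMEM201, NEMP1, NRM, ANKLE2, SUN1 and SUN2 of the envelope, VRK1, VRK2 and PPP2CA, which act on BANF1, and IFFO1, PRR14, CBX5 and TM7SF2. All 21 had a promoter H3K27ac region in 6 of 6 libraries. With the replicate block 1 fell and 0 rose in fold enrichment (11.8% lower and 2.03% higher over all promoters). The one was TMEM43 (-0.56 ± 0.19, SE; adjusted p = 0.0481, limma), and the median of the 21 was -0.16. By pileup without a block, 10 fell and 2 rose (40.8% lower and 7.09% higher over all promoters), the latter TM7SF2, a sterol reductase related to LBR (0.42; adjusted p = 0.00481, limma), and IFFO1, a lamin-binding protein (0.25; adjusted p = 0.0471, limma). The smallest adjusted p-values among those that fell were at TOR1AIP1 (-0.40; adjusted p = 0.00145, limma), TMEM43 (-0.40; 0.00178) and NRM (-0.48; 0.00253). Next was CBX5, the heterochromatin protein that LBR binds (-0.54; adjusted p = 0.00294, limma). Covered length passed at 0 of 21 genes without the block (3 at an unadjusted p under 0.05) and at 12 with it, among them NEMP1 (0.51), SUN2 (0.53) and ICMT (0.89), with a median of 0.36 next to 0.35 over all genes, of which 46.9% rose with the block. Peak number separated the groups at 3 of the 21 genes, all higher (12.1% of all genes), and for CTCF at 0 of the 19 with a CTCF peak.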

How the data were processed

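Chromatin from HEK293T cells was immunoprecipitated for H3K27ac or CTCF in 12 libraries, and the authors aligned paired reads with Bowtie2 to hg38 and called peaks in each library separately with MACS3 3.0.0a7, with no pooling of replicates. The deposited peak lists hold each peak's interval and summit, a display score, the fold enrichment (a ratio) at the summit, and the −log10 p-value and q-value of the authors' caller. The authors compared groups with DiffBind, whose output was not used here.

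From these, each peak's summit pileup and local background were solved for, since the caller's fold enrichment is (pileup + 1)/(background + 1) and its p-value is the Poisson tail of the same 2 quantities, and the lowest local background of a list was taken as the library's background coverage. Sequencing depth is not given in the sources used here. Regions were peaks merged over the 6 libraries of an antibody where they shared at least 1 bp. Log2 fold enrichment, centred on each library's median, was tested with limma 3.58.1 (R 4.3.3) over all regions with a peak in 6 of 6 libraries, and log2 of the covered length plus 200 bp over all protein-coding gene windows with a peak in at least 3 libraries, each with Benjamini-Hochberg adjustment and a threshold of 0.05. Peak numbers were compared with a two-sided exact permutation test. The code was tested on simulated data. Tables were handled with Python 3.11.15 and pandas 2.3.3.

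The labels number the replicates 1 to 3 in each group. For H3K27ac, deviations from the group means correlated between same-numbered libraries (Pearson r over regions 0.864, 0.585 and 0.590 for fold enrichment, and over genes 0.643, 0.436 and 0.362 for covered length), so the numbers were treated as pairing the libraries and values with a replicate block are given. These correlations mainly separate number 1 from 2 and 3. For fold enrichment, CTRL replicate 2 correlated at 0.606 with VPA replicate 3, and CTRL replicate 3 at 0.554 with VPA replicate 2. Numbers 2 and 3 are therefore not shown to be pairs, and calls made only with the block rest on this choice.

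The genes, lists and tests were chosen with earlier results of these data known. The text names the promoter H3K27ac region of each gene. It names the gene's CTCF region of highest mean fold enrichment among those with a peak in 6 of 6 libraries. It also names regions with peaks in 3 of 3 libraries of one treatment and 0 of the other, and regions past the limma threshold. Of the other 21 genes, up to 4 are named per comparison and direction, by smallest adjusted p in limma. Settings that combine the block with another choice, and those without replicate 1 of both treatments, were chosen after seeing the data. The sequence of 1 CTCF motif match is not reported here.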

Additional observations from a re-analysis of the deposited data

How the results depend on the processing

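In the 8 windows, limma on H3K27ac fold enrichment called 0 regions higher and 0 lower, and leaving out single libraries gave 0 in each direction or, with the replicate block, 0 to 2 higher and 1 to 2 lower. The counts higher and lower were 2 and 2 with the block, 1 and 2 with the block on stricter peaks, 2 and 4 with the block and no centring, and 1 and 2 without replicate 1. By summit pileup they were 2 and 7, with the block 6 and 9, with no centring 1 and 5, with both 4 and 10, and without replicate 1 7 and 9. Over the genome, fold enrichment gave 0 and 0, with the block 1189 and 1581, on stricter peaks with the block 1144 and 1421, with the block and no centring 855 and 2137, and without replicate 1 682 and 1488. Pileup gave 2155 and 4989, with the block 4513 and 6511, with no centring 748 and 2460, with both 2210 and 9854, and without replicate 1 3709 and 8098. Covered length was called higher at 0 genes of 8, at 4 with the replicate block, at 3 without replicate 1, and at 1 to 4 with the block and a library left out. Over all genes it was 244, against 7192 with the block, 3 with lists of equal length, 92 with stricter peaks and 0 to 932 with a library left out. The number of genes of the 8 with more peaks was 1, with lists of equal length 0, by replicate pairs (block) 3 (3098 of 16034 over all genes), and 1 to 2 with a library left out. Regions in VPA only numbered 1, with lists of equal length 0, and 1 to 4 with a library left out. CTCF peak number was lower at 0 to 1 genes with a library left out. The CTCF motif count of 6 became 17 with 1 mismatch.

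Signs that turned were all of values that did not pass. The LMNB2 promoter difference was 0.27 without VPA replicate 1 (0.024 with the block) and lay between -0.49 and 0.27 with single libraries left out. At the strongest CTCF regions, LMNA (range -0.31 to 0.78 with libraries left out) and LEMD2 (-0.16 to 0.73) turned without VPA replicate 1. LMNB1 turned without VPA replicate 2 (-0.057, block -0.024; range -0.057 to 0.33), and with the block without CTRL replicate 2 (-0.017) or VPA replicate 1 (-0.0023). TMPO turned without VPA replicate 2 (0.23, block 0.49; range -0.85 to 0.23) and with the block without CTRL replicate 2 (0.49). LBR turned by pileup with no centring (-0.11, with and without the block) and without replicate 1 (-0.22). Covered length turned after centring at LBR (-0.27), TMPO (-0.24), BANF1 (-0.29) and LEMD3 (-0.23), without CTRL replicate 1 at LBR (-0.016, range to 0.20) and LEMD3 (-0.020, range to 0.37), and with lists of equal length at LEMD3 (-0.066). The cause was not tested.

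CTCF replicate numbers were not treated as pairs, since same-numbered libraries correlated at 0.340, -0.045 and 0.477. CTRL replicate 2 correlated best with VPA replicate 3. The replicate block left 0 CTCF calls by limma in fold enrichment and covered length.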
